A study of Homo sapiens with 6 samples.

Results

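The 50 genes described here encode the steps of cAMP signaling, from the adenylyl cyclases to the transcription factors of the CREB family and a few genes that CREB is known to induce. They were taken by symbol from a fixed list, which was drawn up with earlier results of these data known. No measured value entered the rule itself, and all 50 were found among the 58676 genes listed. Of the 50, 39 reached a TPM (reads per gene length, scaled to the same total in every library) of at least 1 in at least 3 libraries and entered the test, and ADCY2 was the only member without a read in any library. In these lung adenocarcinoma cells most steps had 1 or 2 genes that held most of the TPM, as any step with only 2 or 3 listed genes must. The leading gene by mean was the same in both cell lines, and no member was called as a differentially expressed gene (DEG) between them.

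Adenylyl cyclases make cAMP from ATP when a receptor activates the stimulatory G protein, and phosphodiesterases break it down. cAMP binds the regulatory subunits of protein kinase A (PKA), which frees the catalytic subunits, and A-kinase anchoring proteins hold PKA at particular places in the cell. In the nucleus PKA phosphorylates CREB and its relatives, which bind cAMP response elements and recruit coactivators. In airway and alveolar epithelium the pathway is known for the control of fluid and surfactant secretion.

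The libraries came from A549, a human lung adenocarcinoma line, in 2 forms with 3 libraries each. A549 Rec had received human recoverin cDNA with a myc tag in the retroviral vector pMXs-puro, and A549 MOCK the empty vector. Recoverin is a calcium-binding protein of photoreceptors that A549 lacks. A549 Rec was selected with puromycin as a stably expressing line, and both were grown as 2D cultures for 6 days, in high-glucose DMEM with 10% CS and methylcellulose. The sources used here do not say whether each line was a clone or a pool, or whether the 3 replicates were separate cultures, so the p-values measure the spread between these libraries, which may be technical. The labels name no agent that raises cAMP. In bulk RNA, fewer cells with a transcript and less of it per cell cannot be told apart.

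RCVRN, the recoverin gene, had TPM values of 0, 0 and 0 in the A549 MOCK libraries and 322, 338 and 339 in those of A549 Rec, as the labels state (limma, adjusted p = 5.82e-08). The reads behind the TPM were recovered as 15183471 to 18572137 per library. KRT8, KRT18 and CDH1 were high in all 6 libraries, whereas the epithelial markers EPCAM and KRT19 were low (0.979 to 2.98 TPM and under 1), and the 4 alveolar type II markers summed to at most 0.566, so the defining markers of the alveolar cell were near 0. Markers of fibroblasts, leukocytes and endothelial cells summed to at most 5.48, 1.49 and 0.912 TPM, most of the first being COL1A1. Both libraries of replicate 3 stood apart, with 34.5% (MOCK) and 26.9% (Rec) of the TPM on mitochondrially encoded genes against 13.3% to 17.3% in the other 4. TPM of all other genes is pushed down where that share is high, so values rescaled without those genes are given wherever this changes a statement.

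**Figure D1:**
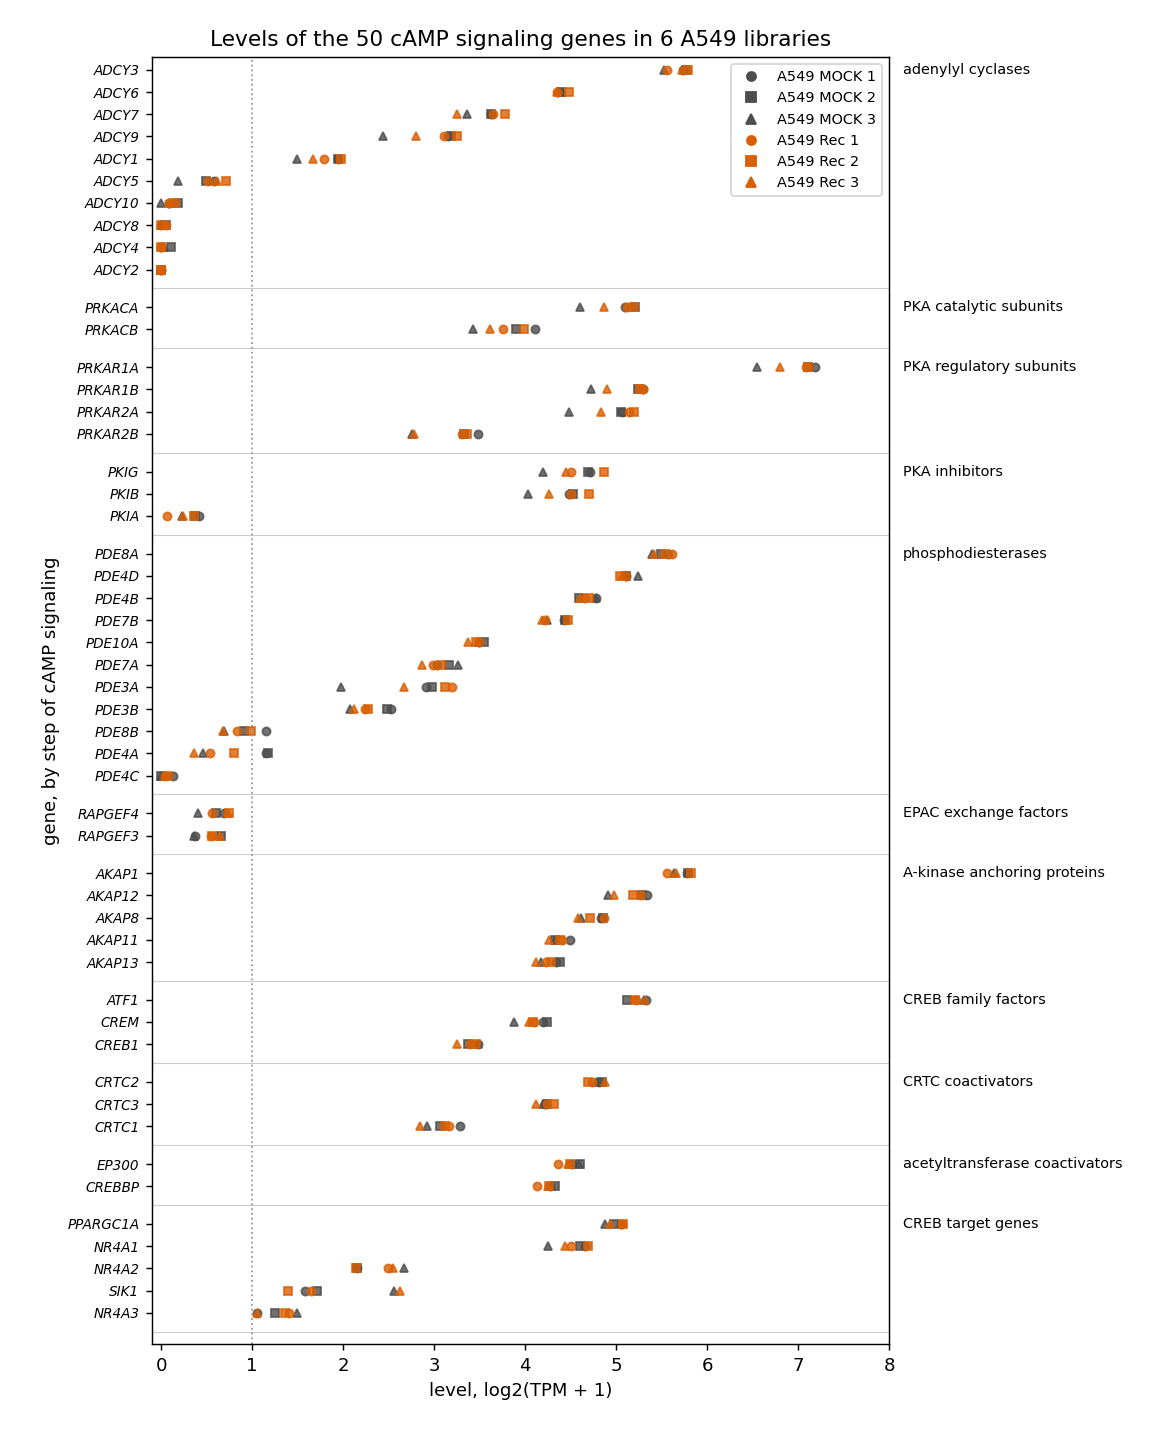
Level of each of the 50 genes on the log2(TPM + 1) scale (x axis), ordered by step and by mean level (y axis); each point is 1 library (grey A549 MOCK, orange A549 Rec; circle, square and triangle for replicates 1, 2 and 3), and the dotted line marks a TPM of 1. The orange and grey points of most genes lay together, and the triangles of replicate 3 often lay to the left.

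The adenylyl cyclases were led by ADCY3, a calmodulin-regulated membrane enzyme. ADCY3 TPM was 52.1, 53.6 and 45.2 in the A549 MOCK libraries and 46.1, 54.2 and 51.6 in those of A549 Rec, with overlapping groups, and it made up 55.3% ± 1.97 (SD over 6 libraries) of the summed TPM of the 10 cyclases. ADCY6, which calcium inhibits, followed with 22.0% ± 1.55 and lay below ADCY3 in every library. ADCY7, known to be stimulated by G protein beta gamma subunits, held 11.8% ± 1.19. ADCY9, the forskolin-insensitive form, held 7.69% ± 1.30, and its range of 4.42 to 8.54 TPM touched that of ADCY7 at 8.53 to 12.7, although ADCY9 was below ADCY7 in each of the 6 libraries. ADCY1, the calmodulin-stimulated form best known from neurons, reached 1.82 to 2.94 TPM. The other 5 were barely seen: ADCY5 had 7 to 33 reads per library, ADCY10, the soluble cyclase that bicarbonate activates, had 0 to 4, ADCY4 had 0 to 3, ADCY8 had 0 to 1, and ADCY2 had 0 in all 6, where a floor of 3 reads applies. Forms classed as stimulated by calcium and calmodulin (ADCY1, ADCY3 and ADCY8) made up 58.0% ± 1.84 of the cyclase TPM, most of it ADCY3. Those classed as inhibited by calcium (ADCY5 and ADCY6) made up 22.4% ± 1.43, and no response to calcium was measured. Neither share differed between the lines beyond the spread (differences of -0.474 and -0.155 percentage points; exact permutation test, p = 0.9 and 1). The strand setting of the counting is not stated, and 24.4% of the ADCY3 exon bases and 41.8% of those of ADCY7 lie opposite exons of other genes (CENPO and BRD7 among them), so part of their reads may belong to those.

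PKA was present with an excess of regulatory over catalytic transcripts. Among the catalytic subunits, PRKACA (C alpha) had TPM values of 33.3, 35.9 and 23.2 in the A549 MOCK libraries and 33.7, 35.7 and 28.1 in those of A549 Rec. PRKACB (C beta) had TPM values of 16.3, 14.0 and 9.72 in the A549 MOCK libraries and 12.5, 14.9 and 11.2 in those of A549 Rec. PRKACA exceeded PRKACB in every library and made up 70.8% ± 1.97 of the pair, and in both genes the lowest values were those of replicate 3. After rescaling without mitochondrially encoded genes this still held for PRKACA. It no longer held for PRKACB, with 15.1 in A549 Rec 1 and 15.4 in A549 Rec 3. Of the regulatory subunits, PRKAR1A (RI alpha), which is known to buffer free catalytic subunit, was the highest of all 50 genes, with TPM values of 145, 137 and 92.6 in the A549 MOCK libraries and 135, 137 and 111 in those of A549 Rec. It held 63.5% ± 0.771 of the regulatory TPM, PRKAR1B 17.1% ± 0.363, PRKAR2A 15.3% ± 0.768 and PRKAR2B 4.07% ± 0.382. PRKAR1B and PRKAR2A overlapped in range across libraries, but the order of the 4 was the same within each of the 6. The summed regulatory TPM was 4.45 ± 0.143 times the catalytic TPM over the 6 libraries, between 4.31 and 4.69 in each. Type I subunits (PRKAR1A and PRKAR1B) made up 81.1% ± 0.226 of the regulatory TPM in A549 MOCK and 80.1% ± 0.587 in A549 Rec (n = 3 each), with no overlap. That is a difference of 1 percentage point at the smallest p that 3 against 3 allows (exact permutation test, p = 0.1; adjusted p = 0.5 over 15 shares and ratios).

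The heat-stable inhibitors of PKA were as abundant as its catalytic subunits, with a ratio of summed TPM of 0.981 ± 0.0472. PKIG and PKIB shared the step, with 52.5% ± 1.32 and 47.0% ± 1.51. PKIG TPM was 25.1, 24.7 and 17.3 in the A549 MOCK libraries and 21.7, 28.2 and 20.8 in those of A549 Rec, and PKIB TPM was 21.3, 21.9 and 15.4 in the A549 MOCK libraries and 21.8, 25.0 and 18.1 in those of A549 Rec. PKIG was the higher of the 2 in 5 of 6 libraries, the exception being A549 Rec 1, so their order is not firm, and 34.6% of the PKIG exon bases lie opposite exons of ADA. PKIA, the form first purified from muscle, had only 1 to 7 reads per library. The inhibitor transcripts are short, so PKIG and PKIB rest on 243 to 412 and 296 to 502 reads although their TPM is near that of ADCY6, with 816 to 1048 reads.

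The leading gene of the phosphodiesterases held a smaller share than that of any other step, but with 11 genes this was also the longest list. PDE8A, a high-affinity cAMP-specific enzyme that the inhibitor IBMX does not block, led with TPM values of 46.6, 44.0 and 41.2 in the A549 MOCK libraries and 47.9, 45.3 and 41.7 in those of A549 Rec. It made up 29.4% ± 1.13 of the summed TPM of the 11 phosphodiesterases. PDE4D followed with 22.2% ± 1.54, PDE4B with 16.4% ± 0.916, PDE7B with 12.7% ± 0.877 and PDE10A with 6.70% ± 0.193, each below the one before in every library. This order is by TPM and rests on the gene lengths used, as do the shares in the other steps. In recovered reads PDE4D exceeded PDE8A in every library (2685 to 3372 against 1709 to 2088), on recovered lengths of 16308 and 7886 bases. PDE4 enzymes are the targets of rolipram and roflumilast and are known as the main cAMP phosphodiesterases of airway cells. Taken as a family, PDE4 held 39.1% ± 2.1, PDE8 29.9% ± 1.15 and PDE7 17.6% ± 1.04, and the cAMP-specific PDE4, PDE7 and PDE8 families together 86.6% ± 1.30. PDE7A, PDE3A and PDE3B came next with overlapping ranges of 6.31 to 8.59, 2.93 to 8.18 and 3.21 to 4.77 TPM. PDE3 enzymes are inhibited by cGMP. PDE4A and PDE8B lay mostly under a TPM of 1, with 10 to 41 and 22 to 43 reads, and PDE4C had 0 to 3. For PDE4C and PDE8B, 73.8% and 51.6% of exon bases are shared with overlapping genes on the same strand, so their counts are uncertain. Phosphodiesterase TPM exceeded cyclase TPM by a factor of 1.66 ± 0.114, and the difference between the lines was within the spread (-0.0733; exact permutation test, p = 0.5).

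Transcripts of another effector of cAMP, the EPAC exchange factors, were nearly absent. RAPGEF3 and RAPGEF4 encode EPAC1 and EPAC2, which activate Rap GTPases independently of PKA. RAPGEF4 TPM was 0.613, 0.512 and 0.325 in the A549 MOCK libraries and 0.477, 0.672 and 0.666 in those of A549 Rec, on 13 to 28 reads. RAPGEF3 TPM was 0.296, 0.571 and 0.280 in the A549 MOCK libraries and 0.464, 0.468 and 0.566 in those of A549 Rec, on 18 to 36 reads. Both were under a TPM of 1 in all 6 libraries and RAPGEF4 was the higher in 5 of them. The 5 anchoring proteins of the list were all present: AKAP1, which tethers PKA to the outer mitochondrial membrane, led with 34.2% ± 1.99 of their TPM, then AKAP12 (gravin, at the plasma membrane) with 23.3% ± 1.48, AKAP8 (nuclear) with 17.2% ± 0.843, AKAP11 with 13.1% ± 0.670 and AKAP13 with 12.1% ± 0.279. AKAP1 TPM was 53.9, 54.3 and 48.5 in the A549 MOCK libraries and 46.2, 55.4 and 49.5 in those of A549 Rec, with overlapping groups, and AKAP11 exceeded AKAP13 in 5 of 6 libraries.

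**Figure D2:**
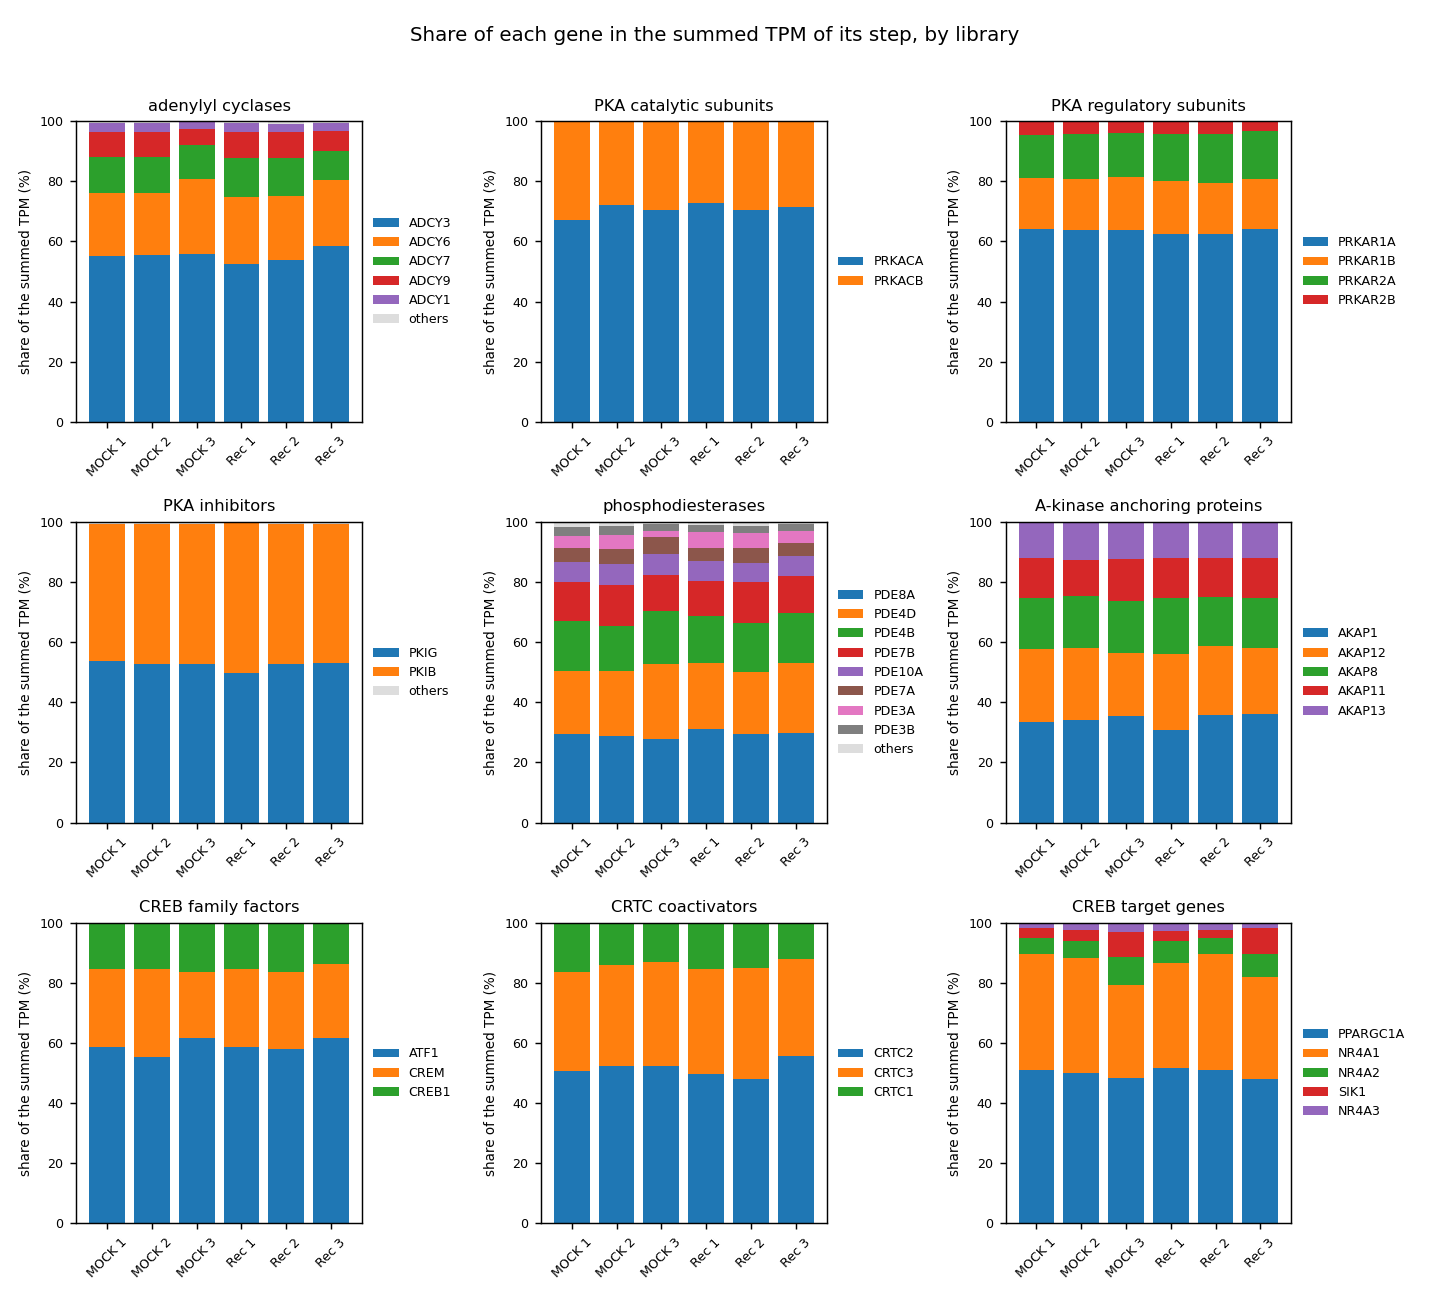
Share of each gene in the summed TPM of its step (y axis, %) in each library (x axis; 3 A549 MOCK, then 3 A549 Rec) for 9 of the 11 steps; genes under 2% on average are drawn together as others. The bars of the 2 lines were nearly alike, with ADCY3 at 52.6% to 58.5% and PRKAR1A at 62.4% to 64.2% of their steps in all 6 libraries, whereas the target genes differed most in replicate 3.

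Among the 3 listed factors of the CREB family, ATF1 was the most abundant and CREB1 itself the least. Of related genes outside the 50, CREB3 (89.3 to 134 TPM) lay above ATF1. ATF2 (24.6 to 31.3 TPM) lay between ATF1 and CREB1, and CREB5 (0.228 to 0.351 TPM) below CREB1. ATF1 TPM was 39.3, 33.7 and 38.6 in the A549 MOCK libraries and 36.2, 35.8 and 38.8 in those of A549 Rec, or 59.1% ± 2.46 of the 3 factors. CREM, which also makes the repressor ICER from an internal promoter, held 25.6% ± 2.39, and CREB1 15.3% ± 0.997. The order was the same in every library, and gene-level TPM cannot tell ICER from longer CREM transcripts. Of the CRTC coactivators, which SIK kinases keep in the cytoplasm, CRTC2 led CRTC3 and CRTC1 with 51.5% ± 2.64, 34.1% ± 1.66 and 14.3% ± 1.58, again in every library. CRTC2 TPM was 27.0, 27.8 and 26.4 in the A549 MOCK libraries and 25.7, 24.7 and 28.5 in those of A549 Rec, with overlapping groups. The acetyltransferases EP300 (p300) and CREBBP (CBP) were close to each other, EP300 being the higher in every library with 54.6% ± 0.626 of the pair.

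The cAMP response element is the palindrome TGACGTCA, and its TGACG core alone is a weaker site. In RefSeq promoters (GRCh38.p14; 250 bases before to 50 after each annotated start), 42 of the 50 members had at least 1 sequence, with 108 starts in all. The palindrome stood in 6 of those 108 promoters (5.56%, against 1.85% of 35116 promoters of all genes) and the core, on either strand and also within a palindrome, in 31 (28.7% against 24.6%). Neighbouring starts can share 1 element, and counted per gene the palindrome was in 4 of 42 (9.52%, against 2.25% of 27305 genes) and the core in 21 (50%, against 28.4%). Genes with more starts have more chances of a match. The 4 genes with a palindrome were CREM, PRKAR1A, PDE7B and PDE4A, and 30 bases around each are shown because they place the element within the pathway's own genes, 5′ to 3′ on the gene's strand, with palindromes and cores in capitals:
CREM, internal start, chr10:35195841-35195870, plus strand: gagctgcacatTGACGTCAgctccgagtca
PRKAR1A, chr17:68512370-68512399, plus strand: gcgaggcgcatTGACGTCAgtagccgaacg
PDE7B, chr6:135851535-135851564, plus strand: actaaacccttTGACGTCActcttgaaatg
PDE4A, chr19:10416759-10416788, plus strand: CGTCAgtccgcTGACGTCAcgccccaggag
The CREM palindrome belongs to 2 of its 7 annotated starts, both internal, and begins at base 3 of the transcript from the first of them. In PRKAR1A it lay at 2 of 5 starts, in PDE4A at 1 of 5, beginning 3 bases before it, and in PDE7B 155 bases before its only start. Levels of these genes ranged widely, from 0.286 to 1.25 TPM for PDE4A to 92.6 to 145 for PRKAR1A. A match is a run of letters and does not show that a factor was bound.

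Of the 5 target genes, PPARGC1A and NR4A1 had the highest TPM. PPARGC1A encodes the coactivator PGC-1 alpha, which is induced by CREB in liver and muscle and drives mitochondrial genes. Its TPM was 32.1, 30.6 and 28.3 in the A549 MOCK libraries and 32.5, 32.7 and 29.6 in those of A549 Rec, with overlapping groups. NR4A1, an orphan nuclear receptor that cAMP induces within an hour in many cells, had 24.2, 23.2 and 18.0 in the A549 MOCK libraries and 21.7, 24.7 and 20.7 in those of A549 Rec. Its relatives were lower, NR4A2 at 3.41 to 5.34 and NR4A3 at 1.07 to 1.81 TPM. SIK1, an inducible kinase that phosphorylates CRTC proteins and so closes a feedback loop, had TPM values of 2.00, 2.27 and 4.87 in the A549 MOCK libraries and 2.13, 1.62 and 5.19 in those of A549 Rec, and both libraries of replicate 3 were above the other 4. Cores without a palindrome stood in the promoters of NR4A3 and SIK1, 4 in the former and 3 in the latter. PPARGC1A had 1 core at 1 of its 2 starts, in a promoter at chr4:24472856-24473155. That promoter lies upstream of and outside the gene as counted (chr4:23755041-23904089, minus strand). Neither of the 2 NR4A1 promoters held a core, and NR4A2 was among the genes without a sequence here. Those of NR4A3 and SIK1 are shown in capitals to compare their spacing:
NR4A3, chr9:99821756-99821884, plus strand: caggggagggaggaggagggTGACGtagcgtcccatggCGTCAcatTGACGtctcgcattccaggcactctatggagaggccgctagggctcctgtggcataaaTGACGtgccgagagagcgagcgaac
SIK1, chr21:43427233-43427368, minus strand: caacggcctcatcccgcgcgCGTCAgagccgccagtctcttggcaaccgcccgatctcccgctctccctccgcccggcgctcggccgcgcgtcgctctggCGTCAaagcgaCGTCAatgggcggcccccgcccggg
The NR4A3 cores began between 109 and 25 bases before the start, and those of SIK1 between 217 and 126 bases before it.

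The SIK1 level is uncertain because its transcript matched a second place on chromosome 21. A copy at chr21:6111131-6123778 was 99.85% identical over 4740 aligned bases, and the table lists a gene there as SIK1B, apart from SIK1 at chr21:43414483-43427189. SIK1B TPM was 70.9, 72.8 and 78.7 in the A549 MOCK libraries and 73.2, 70.3 and 71.9 in those of A549 Rec. Both rows summed to 72.9, 75.1 and 83.6 TPM for A549 MOCK and to 75.3, 71.9 and 77.1 TPM for A549 Rec. How the counting divided reads between the rows is not stated, and with SIK1B added PPARGC1A would hold 23.0% of the target TPM instead of 50.2% ± 1.49, behind SIK1. None of the other 49 members had such a copy (at least 95% identity over at least 500 bases).

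The design asks whether recoverin altered these genes. None of the 39 tested members was a DEG (limma, adjusted p under 0.05 and at least 2-fold), where 0.00574% of all 17408 tested genes, RCVRN alone, were called. None had an unadjusted p under 0.05 either, against 2.06% of all genes, and every member's adjusted p was at least 0.9997. The median difference of the members was -0.03 on the log2 scale and that of all genes 0.02, with 18 members higher and 21 lower in A549 Rec. How far the data bound each gene is given by the intervals. For 38 of 39 members the 95% interval lay within 2-fold either way in TPM + 1, and for 34 within 1.5-fold. PDE3A was the exception to the former, and ADCY9, PRKAR2A, PRKAR2B and SIK1 were further exceptions to the latter. For genes of low TPM, such as SIK1 and NR4A3, the same interval spans a wider fold in TPM itself. The differences of the leading genes, A549 Rec minus A549 MOCK on the log2(TPM + 1) scale, are given with their 95% intervals. ADCY3 differed by 0.01 (-0.27 to 0.29), PRKACA by 0.09 (-0.34 to 0.52) and PRKAR1A by 0.05 (-0.41 to 0.51). For PKIG the difference was 0.08 (-0.35 to 0.51), for PDE8A 0.03 (-0.22 to 0.28) and for AKAP1 -0.05 (-0.32 to 0.21). At the level of transcription the differences were -0.01 (-0.26 to 0.24) for ATF1, -0.04 (-0.28 to 0.20) for CRTC2 and 0.06 (-0.19 to 0.30) for PPARGC1A. Of the shares held by the 11 leading genes, none differed after adjustment (exact permutation test, adjusted p = 1), and only EP300 reached the smallest raw p of 0.1.

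**Figure D3:**
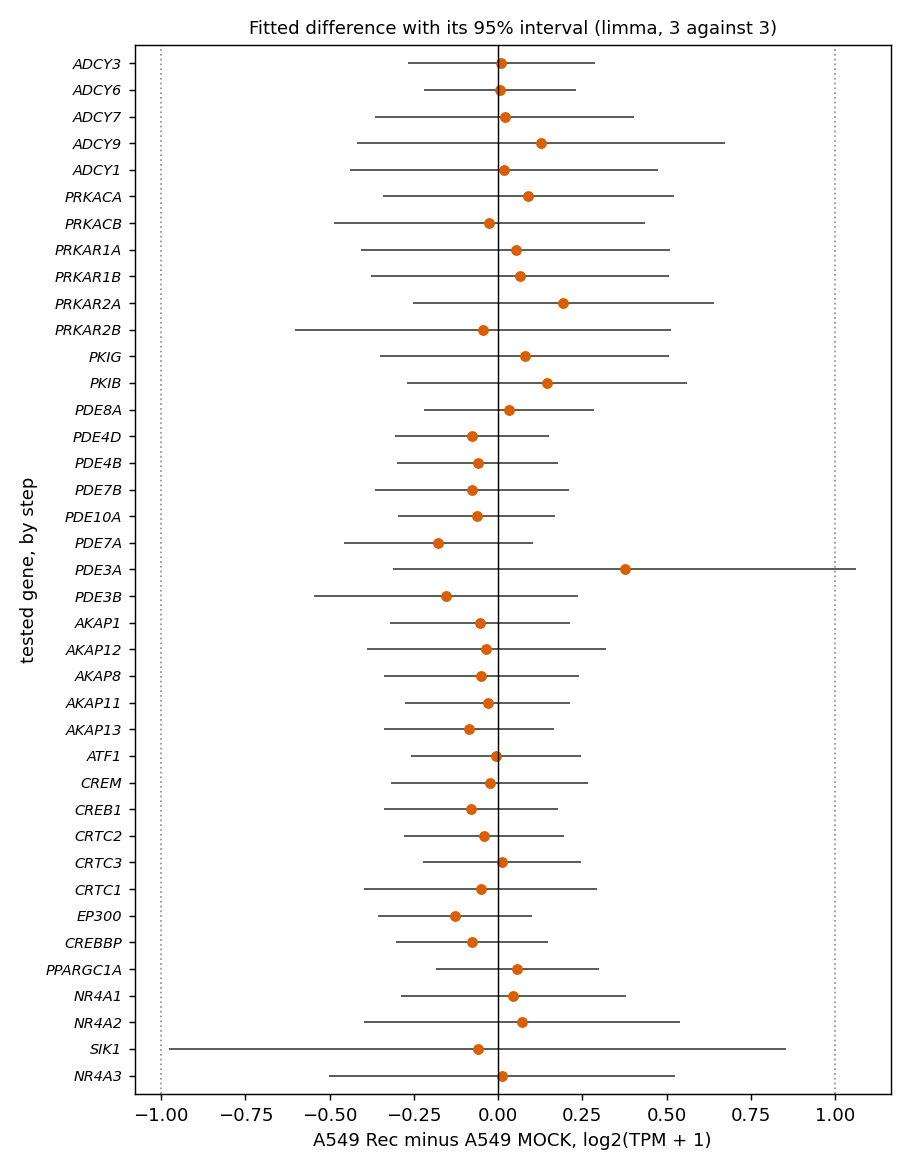
Fitted difference, A549 Rec minus A549 MOCK, on the log2(TPM + 1) scale (x axis; limma, 3 against 3 libraries) with its 95% interval (line) for the 39 tested genes ordered by step (y axis); dotted lines mark 2-fold either way. All 39 intervals included 0, and only that of PDE3A, which ran to 1.06, reached past 2-fold in TPM + 1, the scale of the dotted lines.

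The lines were also compared within the 3 same-numbered pairs, although the data do not show that the numbers 1 and 2 match across the lines. Of the 39 members, 5 were higher in A549 Rec in all 3 pairs (12.8%, against 13.1% of all genes): PDE3A, PDE8A, PKIB, PPARGC1A and PRKAR2A. Another 4 were lower in all 3 (10.3%, against 9.66%): AKAP13, CREBBP, EP300 and PDE7A. After rescaling without mitochondrially encoded genes, 4 were higher (10.3%, against 10.7%; ADCY9, PDE3A, PKIB and PRKAR2A) and 7 lower (17.9%, against 15.4%; AKAP1, AKAP13, CREBBP, CRTC2, EP300, PDE3B and PDE7B). These shares were near those of all genes. PDE3A, PKIB and PRKAR2A were higher, and AKAP13, CREBBP and EP300 lower, on both scales.

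PDE3A had the largest fitted difference of the tested members when all 6 libraries were used. Its TPM was 6.50, 6.84 and 2.93 in the A549 MOCK libraries and 8.18, 7.68 and 5.33 in those of A549 Rec, so that each A549 Rec library exceeded its own pair but the groups overlapped. The pair differences were 0.29, 0.15 and 0.69 on the log2(TPM + 1) scale, and the fit gave 0.38 (-0.31 to 1.06), the 95% interval in brackets here and in what follows. It was the only member with an unadjusted p under 0.05 once the replicate number was a block (1 of 39, or 2.56%, against 4.11% of all genes), and it was not called. Its size depended on the libraries of replicate 3. Without A549 MOCK 3 the fitted difference of PDE3A was 0.05, smaller than those of PRKAR1A (-0.15), PDE7A (-0.12) and EP300 (-0.12). In that fit the median of all genes moved from 0.019 to -0.065. Without both libraries of replicate 3 the fitted difference of PDE3A was 0.22. PDE3B, the other cGMP-inhibited form, had 4.77, 4.59 and 3.21 in the A549 MOCK libraries and 3.71, 3.82 and 3.34 in those of A549 Rec. PDE3A therefore stood at 1.25 ± 0.304 times PDE3B in A549 MOCK and 1.94 ± 0.310 times in A549 Rec (n = 3 each), with every A549 Rec library above every A549 MOCK library. The exact permutation test of this ratio gave p = 0.1, the smallest it can give, and adjusted p = 0.5 over the 15 shares and ratios.

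PRKAR2A, the RII alpha subunit that anchoring proteins bind most tightly, had TPM values of 32.4, 32.1 and 21.3 in the A549 MOCK libraries and 34.4, 35.6 and 27.5 in those of A549 Rec. Its pair differences on the log2 scale were 0.08, 0.15 and 0.35, and the fit gave 0.19 (-0.25 to 0.64). PKIB differed by 0.03, 0.18 and 0.23 (log2) in the pairs, with a fit of 0.14 (-0.27 to 0.56). PDE7A, a cAMP-specific enzyme of leukocytes and other cells, had 7.19, 7.93 and 8.59 in the A549 MOCK libraries and 6.90, 7.40 and 6.31 in those of A549 Rec. The pairs differed by -0.05, -0.09 and -0.39 on the log2 scale, and the fit gave -0.18 (-0.46 to 0.10). Most of the PDE7A difference thus lay in pair 3, and after rescaling pair 1 no longer showed it.

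EP300 and CREBBP were the only members in which, in TPM as deposited, every A549 Rec library lay below every A549 MOCK library (2 of 39, or 5.13%, against 2.69% of all genes), and no member lay above in the same way (against 2.47%). EP300 TPM was 21.9, 23.3 and 23.1 in the A549 MOCK libraries and 19.5, 21.5 and 21.2 in those of A549 Rec. CREBBP TPM was 18.4, 19.1 and 18.4 in the A549 MOCK libraries and 16.5, 18.2 and 18.0 in those of A549 Rec. After rescaling without mitochondrially encoded genes the groups overlapped in both genes. The rescaled EP300 values were 25.3, 27.6 and 35.2 for A549 MOCK and 23.6, 24.8 and 29.0 for A549 Rec, and for CREBBP the highest A549 Rec value, 24.7 in replicate 3, exceeded 2 of the A549 MOCK values (21.2 and 22.6). The fitted log2 differences (TPM as deposited) were -0.13 (-0.36 to 0.10) and -0.08 (-0.30 to 0.15), and neither was called. EP300 stood at 1.22 ± 0.0307 times CREBBP for A549 MOCK and 1.18 ± 0.00183 times for A549 Rec (exact permutation test, p = 0.1; adjusted p = 0.5).

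**Figure D4:**
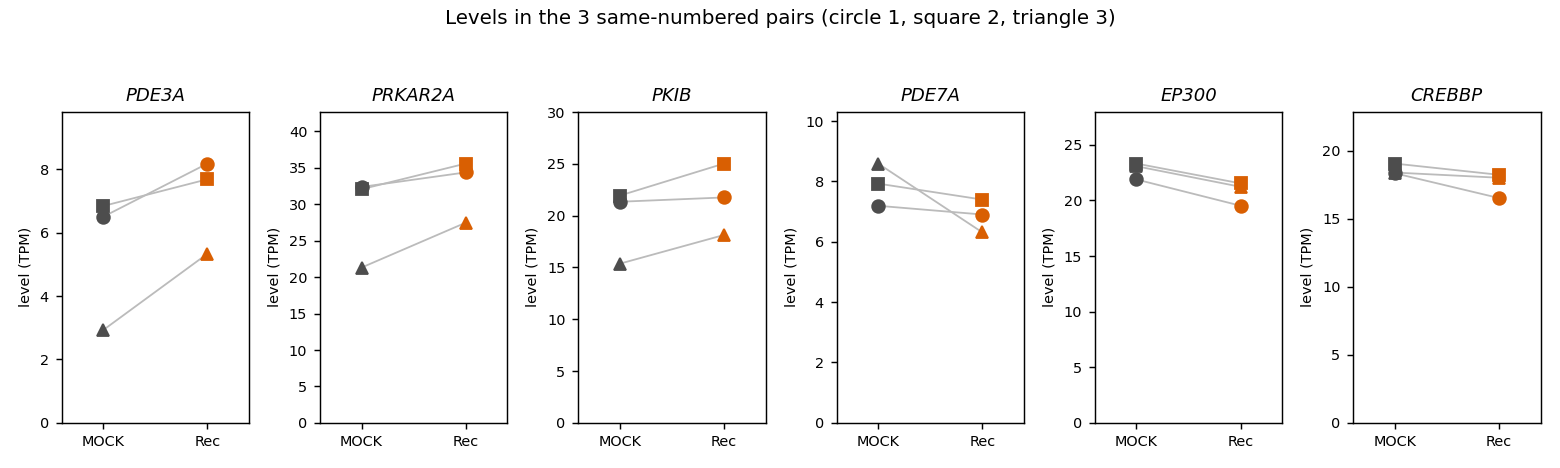
TPM (y axis, from 0) of the 6 genes with the smallest p among those of 1 direction in all 3 pairs, in A549 MOCK (grey) and A549 Rec (orange); a line joins the libraries of 1 replicate number. PDE3A, PRKAR2A and PKIB were higher and PDE7A, EP300 and CREBBP lower in A549 Rec in each pair, and the groups of EP300 and CREBBP did not overlap in TPM as deposited but did after rescaling.

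**Figure D5:**
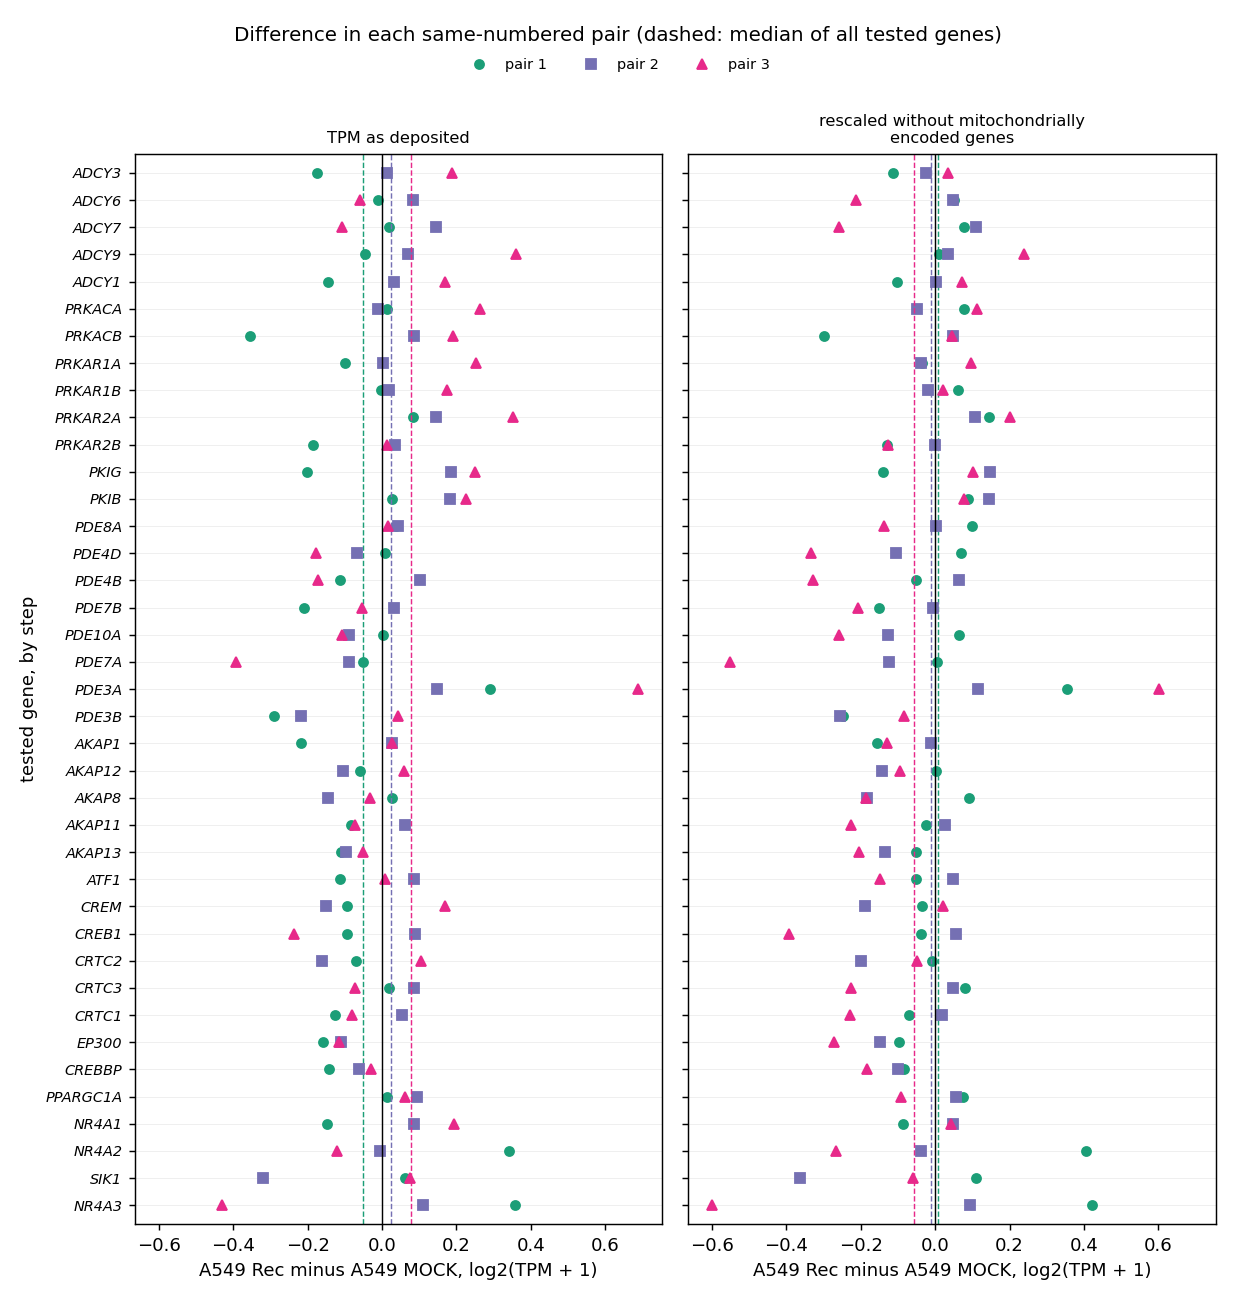
Difference between A549 Rec and A549 MOCK on the log2(TPM + 1) scale (x axis) in each same-numbered pair (circle 1, square 2, triangle 3) for the 39 tested genes (y axis), from TPM as deposited (left) and rescaled without mitochondrially encoded genes (right); dashed lines mark the median of all tested genes in that pair. Pair 3 shifted to the left on rescaling, from 22 genes higher and 17 lower to 13 higher and 26 lower.

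The libraries of replicate 3 stood apart from the other 4 in many of these genes. In 22 of 39 members (56.4%, against 44.0% of all genes) both libraries of replicate 3 were below the other 4, among them all 6 PKA subunits. NR4A2 and SIK1 were the 2 members with both above (5.13%, against 6.40%). After rescaling without mitochondrially encoded genes, 7 were below (17.9%, against 14.7%) and 14 above (35.9%, against 27.2%). The 7 were ADCY1, ADCY9, PDE3A, PRKACA, PRKAR1A, PRKAR1B and PRKAR2B, so 4 PKA subunits kept this position. Within pair 1 the members split into 14 higher and 25 lower in A549 Rec, where 38.0% of all genes were higher, and into 19 and 20 after rescaling, where 52.0% were. Within pair 2 they split 25 and 14 (56.8% of all genes higher), and 20 and 19 after rescaling (47.2%). In pair 3 the shares of all genes higher were 62.8% and 39.6%. What set replicate 3 apart was not tested.

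Genes of the pathway outside the 50 were read from the same fit. Of 44 further genes of cAMP machinery (G proteins, remaining phosphodiesterases and anchoring proteins, SIK kinases and phosphatases), 32 were tested and none was called or had an unadjusted p under 0.05; their differences ran from -0.15 to 0.15 on the log2 scale, with 27 higher and 5 lower in A549 Rec where 56.6% of all genes were higher. On rescaling the split was 22 and 10, where 42.3% of all genes were higher. Both libraries of replicate 3 were below the other 4 in 25 of these 32 genes in TPM as deposited, against 44.0% of all genes. After rescaling, 8 were below and 5 above, against 14.7% and 27.2% of all genes. GNAS, which encodes the stimulatory G protein, had TPM values of 123, 125 and 84.8 in the A549 MOCK libraries and 117, 129 and 102 in those of A549 Rec. Of 28 symbols of other genes known as CREB targets, 26 were found and 16 tested. The symbols G6PC, which was found, and G6PC1, which was not, name the same gene. Again none was called or under an unadjusted p of 0.05, and the differences of those tested ran from -0.20 to 0.32. FOS, an immediate early gene, had the largest of these with 8.95, 8.59 and 3.30 in the A549 MOCK libraries and 7.36, 8.61 and 8.91 in those of A549 Rec, of which the A549 MOCK 3 value was the lowest.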

How the data were processed

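RNA-seq libraries of A549 Rec (n = 3) and A549 MOCK (n = 3) were analysed. Groups and replicate numbers are those of the labels. The authors trimmed reads with Trimmomatic 0.38 after FastQC 0.11.7, mapped them to GRCh38 with HISAT2 2.1.0, counted them per gene with featureCounts 1.6.3 and deposited TPM, in which mitochondrially encoded genes are included. The submitters' processing notes name a mouse build, while the gene IDs and coordinates of the table are human. The annotation release, strand setting and treatment of reads with several matches are not given in the sources used here.

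The 50 members, the other lists and the marker lists were chosen with earlier results of these data known. The main test was limma 3.58.1 (R 4.3.3; lmFit, eBayes with trend) on log2(TPM + 1) over the 17408 genes that reached a TPM of 1 in 3 or more of the 6 libraries, with Benjamini-Hochberg adjustment. A DEG had an adjusted p under 0.05 and a fold of at least 2 in TPM + 1. Named genes were the leading gene of each step (highest mean TPM), the 6 members of 1 direction in all 3 pairs with the smallest unadjusted p, and RCVRN; other contrasts named were chosen after their values were seen. Differences on this scale understate changes of low genes. Shares were compared with two-sided exact permutation tests (scipy 1.17.1; smallest p 0.1). Recovered reads are TPM divided by the step that 1 read gives; the length that makes them whole (within 0.01) was the GENCODE v44 exon length for 14535 of 29900 detected genes, and otherwise the smallest that fits, so such reads can be off by a common factor. A floor of 3 reads and all such counts cover counting error only. Scripts were tested on simulated data. Copies were sought with minimap2 2.31 in hg38. Samples were paired by replicate number. Deviations from the group means of same-numbered libraries correlated in all 3 pairs (r = 0.115, 0.164 and 0.342 across 17408 genes, which are not independent). With 3 libraries per group, a shift shared by the replicate 3 libraries alone would also give positive values in pairs 1 and 2. Differently numbered libraries were not compared, so these values cannot show that the numbers 1 and 2 match across the lines. Alternatives were another pseudocount (0.1), no filter, quantile normalization, rescaling without mitochondrially encoded genes, no trend, a replicate block, limma's voom on recovered reads, and leaving out libraries.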

Additional observations from a re-analysis of the deposited data

How the results depend on the processing

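No member was called in any of the 18 alternatives. With an unadjusted p under 0.05 there was no member in the main test, 1 with the replicate block (PDE3A), 1 with the block after rescaling without mitochondrially encoded genes (PRKAR2A) and 3 with the block on recovered reads by voom (EP300, PDE3A and PRKAR2A). The fit with both libraries of a pair left out and that with voom and the block were added after seeing the data. Members lower in all 3 pairs went from 4 to 7 on rescaling. With SIK1B counted as SIK1, the share of PPARGC1A went from 50.2% to 23.0%.

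Among the 15 genes given with test values, EP300, CREBBP, PDE7A, PDE3A, PRKAR2A and PPARGC1A kept their direction in all 18 alternatives, PRKAR2A with differences between 0.0023 and 0.31 and PDE3A between 0.054 and 0.55, the lowest of both without A549 MOCK 3. ADCY3 turned to -0.018 under quantile normalization, -0.034 on rescaling with or without the replicate block, -0.010 by voom and -0.0096 by voom with the block. PDE8A turned to -0.012 on rescaling, with or without the block. When libraries were left out, the differences ranged from -0.080 to 0.10 for ADCY3, -0.096 to 0.21 for PRKACA, -0.15 to 0.17 for PRKAR1A, -0.088 to 0.22 for PKIG and -0.014 to 0.085 for PDE8A. They ranged from -0.12 to 0.028 for AKAP1, -0.075 to 0.047 for ATF1, -0.12 to 0.018 for CRTC2 and -0.011 to 0.26 for PKIB. Without A549 MOCK 3, which had the largest mitochondrial share, the median difference of all genes moved from 0.019 to -0.065. The share of all genes higher in A549 Rec went from 56.6% to 31.0%. In that fit the sign turned for 7 of the 15 genes, namely ADCY3, PRKACA, PRKAR1A, PKIG, PDE8A, ATF1 and PKIB. None of these genes was called in any alternative, so no direction is claimed for them, and the cause was not tested.

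The 3 libraries per line bound most members to less than 2-fold, and differences within those intervals were not detectable. Members with few reads, such as PKIA, ADCY10 and PDE4C, could not be compared.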

Other observations

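Among the other genes known as CREB targets, several stood apart in replicate 3 of both lines. After rescaling without mitochondrially encoded genes, 8 of the 16 tested were higher in both replicate 3 libraries than in the other 4 (EGR1, DUSP1, RGS2, AREG, BDNF, NFIL3, GADD45B and PTGS2) and 4 were lower (IRS2, STC1, INSL4 and CPS1), against 27.2% and 14.7% of all genes. PTGS2, which encodes the inducible cyclooxygenase, reached 521 and 461 TPM in the replicate 3 libraries of A549 MOCK and A549 Rec, and at most 231 in the other 4. AREG, which encodes the EGF receptor ligand amphiregulin, had TPM values of 16.4, 14.5 and 51.8 in the A549 MOCK libraries and 19.0, 20.6 and 47.7 in those of A549 Rec. STC1, a secreted glycoprotein gene, had TPM values of 33.4, 34.0 and 12.7 in the A549 MOCK libraries and 25.4, 29.4 and 18.2 in those of A549 Rec. This list was also chosen with earlier results of these data known. These genes respond to other signals as well as to cAMP, and what set replicate 3 apart was not tested.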
